A study of Mus musculus with 6 samples.

Results

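The genes described here are 10 regulators of the cellular stress response built around the transcription factor ATF4: Atf4, Ddit3 (which encodes CHOP), Atf3, Trib3, Chac1, Cebpb, Atf5, Ppp1r15a, Nupr1 and Ddit4. They were read as every array probe set whose platform annotation gives the gene's symbol alone, which found 16 probe sets for the 10 genes among 45037 probe sets for 18193 genes. The genes were selected on the intensities of these same arrays, with their differences by tethering group and by replicate number in view. Their values in both comparisons are therefore a description, with no test.

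The study measured total RNA from NIH3T3 cells, an immortalised mouse fibroblast line, on 6 Affymetrix arrays to read the transcription of genomic regions brought to the inner nuclear membrane. All 6 samples came from the same clone, clone M, which carries multiple insertions of lacO, the bacterial operator sequence that the lac repressor protein binds. In the 3 tethered samples the insertion lay at the nuclear periphery, and in the 3 untethered samples it lay centrally in the nucleus. Both groups were grown in DMEM with 10% foetal calf serum to about 80% confluency. The labels name neither the protein that holds the insertion at the periphery nor whether untethered cells carry it, and the use of 1 clone limits what the groups can stand for. Each group has replicates numbered 1, 2 and 3, and nothing says that they came from separate cultures, so spreads and p-values cover only these samples.

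The integrated stress response lets a cell answer amino acid shortage, misfolded protein in the endoplasmic reticulum (ER), loss of haem or viral RNA with a shared programme. Kinases specific to each stress phosphorylate the translation factor eIF2, which lowers protein synthesis in general while the Atf4 messenger RNA is translated more. ATF4 protein then pairs with other basic leucine zipper (bZIP) factors on C/EBP-ATF elements near genes for amino acid supply, for further transcription factors such as CHOP and ATF3, and for inhibitors that end the response. Much of the control of ATF4 acts on translation and protein stability, which an array of RNA does not read.

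Promoter windows from RefSeq (build GRCm38.p6), from 250 bases before to 50 bases after an annotated start, were found for 10 of the 10 genes, with 2 windows for Atf5. They were searched on both strands for the C/EBP-ATF element TGATGNAA, for its variant TGACGNAA, for the cAMP response element TGACGTCA and for the ER stress element (CCAAT and CCACG with a fixed spacer). No sequence can match more than 1 of the first 3 from the same first base. The letters TGATGNAA stood in the windows of 4 genes, Atf3, Chac1, Trib3 and Nupr1, and in 3.97% of all 32851 windows. The variant stood in those of Atf3 and Chac1 and in 1.59% of all, and the cAMP response element in that of Ppp1r15a and in 1.79% of all. The ER stress element stood in 0 of the 11 windows and in 0.119% of all. A match describes the letters and is not evidence of a bound site, and a window without one says nothing of sites elsewhere. The windows of 30 bases around each match are shown because they hold the letters that matched, which not all of the 10 genes share. They are written 5′ to 3′ on the gene's own strand with the match in capitals (where the element lies on the opposite strand the capitals are its reverse complement). The first base of the match counts from the annotated start.
Atf3, C/EBP-ATF element at position -110, chr1:191183425-191183454, minus strand: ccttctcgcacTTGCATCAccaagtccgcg
Nupr1, C/EBP-ATF element at position -110, chr7:126625562-126625591, minus strand: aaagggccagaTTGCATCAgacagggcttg
Chac1, C/EBP-ATF element at position -193, chr2:119351038-119351067, plus strand: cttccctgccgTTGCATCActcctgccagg
Trib3, C/EBP-ATF element at position 15, chr2:152344028-152344057, minus strand: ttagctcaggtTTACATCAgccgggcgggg
Atf3, variant at position -10, chr1:191183325-191183354, minus strand: tattaatagcaTTACGTCAgcctgggattg
Ppp1r15a, cAMP response element at position -12, chr7:45526262-45526291, minus strand: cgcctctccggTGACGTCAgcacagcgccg

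Chac1 and Ddit3 are shown over the whole 250 bases before the start, since Chac1 holds both the element and its variant and Ddit3, which differed more between arrays, holds none of the letters searched. The Chac1 match at position -250 is the first base of its window.
Chac1, chr2:119350992-119351241, plus strand: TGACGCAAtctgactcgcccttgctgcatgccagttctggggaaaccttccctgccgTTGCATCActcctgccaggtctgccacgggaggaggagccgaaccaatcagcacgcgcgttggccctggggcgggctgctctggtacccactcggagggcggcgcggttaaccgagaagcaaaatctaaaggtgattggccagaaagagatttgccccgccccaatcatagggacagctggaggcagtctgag
Ddit3, chr10:127290543-127290792, plus strand: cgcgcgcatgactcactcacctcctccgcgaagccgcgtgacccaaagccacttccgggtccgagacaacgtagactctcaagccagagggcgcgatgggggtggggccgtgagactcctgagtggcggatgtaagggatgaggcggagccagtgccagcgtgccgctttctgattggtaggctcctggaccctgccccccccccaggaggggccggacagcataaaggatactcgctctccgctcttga

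**Figure D1:**
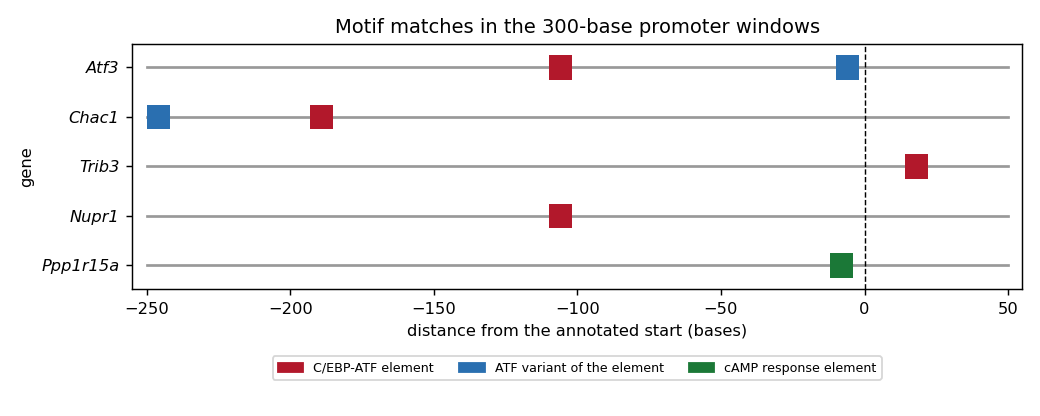
Position of each motif match (blocks of 8 bases, coloured by motif) along the promoter windows of the 5 genes that hold one, in bases from the annotated start (dashed line). Atf3 and Nupr1 each hold the C/EBP-ATF element from position -110, and the Trib3 match lies after the start.

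The arrays were on a common scale, with median intensities between 482.5 and 490.8. All 10 fibroblast markers examined lay above the filter on dim probe sets (a mean log2 intensity of 8.93). So did 2 of 5 epithelial, 3 of 5 macrophage, 2 of 5 endothelial and 1 of 3 adipocyte markers, with no value listed at 0. The adipocyte list held 5 genes, of which only these 3 had a probe set with a single symbol. Over the whole table many probe sets differed between the arrays numbered 1 and the others, mostly through tethered replicate 1. A comparison of number 1 with numbers 2 and 3, with the tethering group as a covariate, called 357 of 22518 probe sets higher (1.59%) and 1863 lower (8.27%) in the arrays numbered 1 (limma, adjusted p under 0.05). That split was taken because earlier results of these arrays showed it. The 2220 calls rest on tethered replicate 1, without which 1 probe set was called, and were 837 without untethered replicate 1, 929 without untethered replicate 3 and 552 without tethered replicate 3. After quantile normalization 929 of 2559 calls were higher, so the share of higher calls moved with the scaling. In a bulk sample, fewer cells of a kind and less RNA per cell cannot be told apart.

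Taking each gene's brightest probe set, 8 of the 10 stress regulators had both arrays numbered 1, the untethered and the tethered one, above all of the other 4, where 12.2% of all probe sets tested did. Atf4 and Cebpb did not. At least 2-fold higher values in the arrays numbered 1 were seen for 7 of the 10 genes, beside 0.568% of all probe sets, and the median log2 difference of the 10 genes was 1.57, beside -0.02 over all probe sets tested. The rule of choice used this contrast, so nothing is read from these shares. Without tethered replicate 1 the median was 1.08 and 7 genes stayed at least 2-fold higher.

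Atf4, the hub of the pathway, was bright on all arrays and varied 2.03-fold between its lowest and its highest array. Its brightest probe set read 6918, 7743 and 7132 in untethered replicates 1, 2 and 3 and 11618, 5718 and 6363 in tethered replicates 1, 2 and 3. Only tethered replicate 1 stood apart, and untethered replicate 1 was the lowest of its group. The log2 difference between number 1 and the others was 0.42 (SE 0.23), made up of 0.95 within the tethered and -0.10 within the untethered group.

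Ddit3 encodes CHOP, a C/EBP family factor known for its part in the death of cells under lasting ER stress. Its intensities were 5096, 1859 and 937 in untethered replicates 1 to 3 and 9594, 839 and 820 in tethered replicates 1 to 3. Both arrays numbered 1 were above all others, untethered replicate 2 came next, and the remaining 3 arrays lay close together. The log2 difference by number was 2.74 (SE 0.41), or 6.68-fold, with 3.53 in tethered and 1.95 in untethered cells. Only 1 of the 22518 probe sets tested had a larger difference in this direction, that of Atf3. The genes were chosen with this contrast in view, so nothing is read from these ranks.

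Atf3, a bZIP repressor induced by many stresses and by growth signals, read 3443, 986 and 415.5 in untethered and 3200, 473 and 299.9 in tethered replicates 1 to 3. The arrays numbered 1 were nearly equal between the groups, and the log2 difference by number was 2.76 (SE 0.39), or 6.76-fold. The baseline of this difference was dim. Of the arrays numbered 2 and 3 only untethered replicate 2 lay above the filter on dim probe sets, and their mean log2 was 8.94, beside the filter of 8.93. Atf5, a relative of ATF4 that is tied to the mitochondrial stress response, read 5205, 4007 and 1616 in untethered and 5663, 2673 and 2181 in tethered cells. Its lowest array was untethered replicate 3, and its log2 difference by number was 1.13 (SE 0.35). Cebpb, which encodes a bZIP partner of ATF4 also used in inflammation and fat cell differentiation, read 4885, 5246 and 3670 in untethered and 5401, 2804 and 2772 in tethered cells. Untethered replicate 2 was above untethered replicate 1 here, so the arrays numbered 1 did not stand clear of the others, and the log2 difference by number was 0.55 (SE 0.22).

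Trib3 and Ppp1r15a, which restrain the response, were high in both arrays numbered 1 as well. Trib3 encodes a pseudokinase that binds ATF4 and Akt and dampens both. It read 3624 (untethered) and 4839 (tethered) in the arrays numbered 1, against 1619 and 1324 in untethered and 1382 and 1185 in tethered replicates 2 and 3. Its log2 difference by number was 1.61 (SE 0.17), or 3.06-fold. Ppp1r15a encodes GADD34, the subunit that directs a phosphatase to eIF2 and restores translation. It read 2633, 1698 and 865 in untethered and 4777, 798 and 781 in tethered cells, a log2 difference by number of 1.86 (SE 0.40). Across the 6 arrays its log2 values and those of Ddit3 had a Pearson correlation of 0.99, the highest of the 45 pairs among the 10 genes.

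Nupr1, a small chromatin-associated stress protein, read 4193, 2876 and 1437 in untethered and 5039, 1283 and 1231 in tethered cells, with a log2 difference by number of 1.52 (SE 0.33). Chac1 encodes an enzyme that breaks down glutathione and is a late target of ATF4 and CHOP. It read 6809, 3530 and 2128 in untethered and 8740, 1221 and 1110 in tethered cells, a log2 difference of 2.11 (SE 0.38), or 4.32-fold. Ddit4 encodes REDD1, an inhibitor of mTOR signalling that also answers to hypoxia and glucocorticoids. It read 4041, 2813 and 2542 in untethered and 3763, 1496 and 1772 in tethered cells, with a smaller log2 difference of 0.90 (SE 0.16). For Nupr1, Chac1 and Ddit4 untethered replicate 2 lay between the arrays numbered 1 and the rest.

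**Figure D2:**
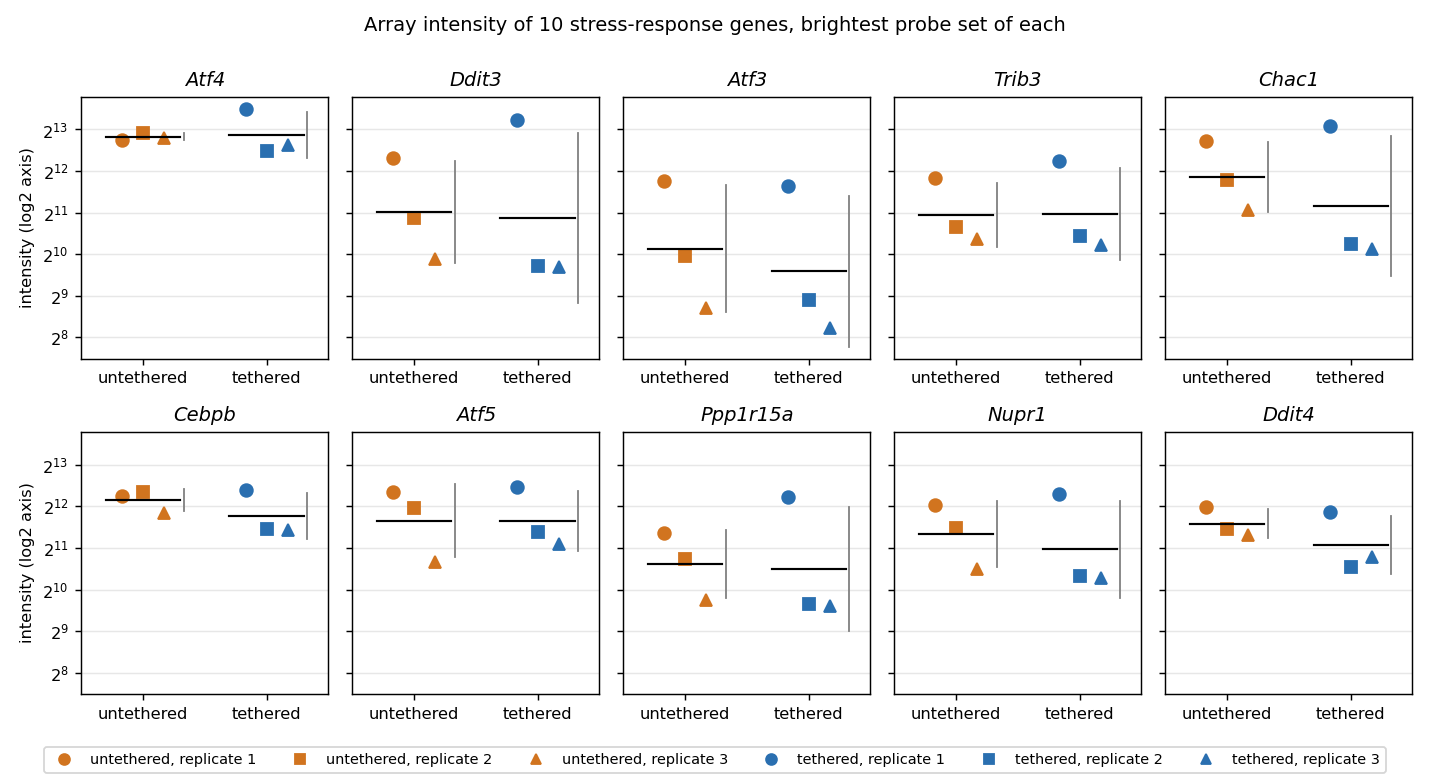
Intensity (log2 axis) of the brightest probe set of each of the 10 genes in every array, by group (colour) and replicate number (marker), with black lines at the group means of log2 values and grey bars of 1 SD either side. The circles of replicate 1 are the highest point of the panel in both groups for 8 genes, and Atf4 and Cebpb are the exceptions.

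The difference by number was larger in the tethered than in the untethered group for all 10 genes, with medians of 1.96 and 1.08 on the log2 scale. Over all probe sets tested these medians were -0.020 and -0.040. The gap was widest for Chac1 (2.91 against 1.31) and Ddit3, and narrowest for Atf5 (1.23 against 1.03). It has 1 array numbered 1 on each side and was not tested. Untethered replicate 2 enters the untethered baseline, and that array was above untethered replicate 3, tethered replicate 2 and tethered replicate 3 in all 10 genes, as in 34.4% of all probe sets tested. Its median log2 excess over the mean of those 3 arrays was 0.99, and over all probe sets it was 0.018.

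**Figure D3:**
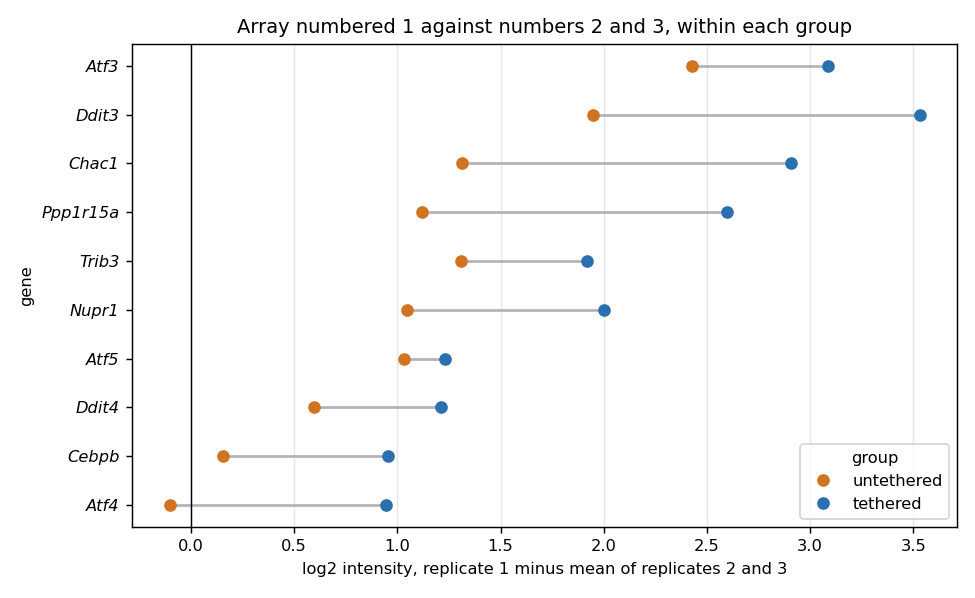
Log2 intensity of replicate 1 minus the mean of replicates 2 and 3, for each gene within untethered (orange) and tethered (blue) cells. The blue point lies to the right of the orange point for every gene, and the Atf4 point of untethered cells (-0.10) is the only value below 0.

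Signs of RNA quality differed between the same arrays. The 5' minus 3' log2 signal of the transferrin receptor control was -2.81 and -2.09 in untethered and tethered replicate 1, -3.07 in untethered replicate 2, and between -1.67 and -1.52 in the other 3. The mean log2 deviation of the 10 genes from their 6-array mean was 0.86 and 1.22 in untethered and tethered replicate 1, 0.14 in untethered replicate 2, and between -0.87 and -0.59 in the other 3. The 3 arrays with the lowest 5' minus 3' signal of this control are the 3 with the highest values of the stress genes, although their order within the 3 differs. The beta actin control had its lowest values in the same 3 arrays, -0.31 and -0.29 in untethered and tethered replicate 1 and -0.56 in untethered replicate 2, beside -0.15 to -0.10 in the others. The GAPDH control did not follow that order, since it was highest in tethered replicate 1 (0.095) and lowest in untethered replicate 2 (-0.060). The log2 signal of the 5' 18S control split by tethering group instead, from 11.15 to 12.16 in untethered and from 10.48 to 10.94 in tethered cells. The summed intensity of the 10 fibroblast markers was 82447 and 98602 in the arrays numbered 1 and between 107920 and 110983 in the others, and 4 of the 10, Col3a1, Thy1, Pdgfra and S100a4, were called lower there (limma, adjusted p of 0.017, 0.018, 0.013 and 0.025), beside 8.27% of all probe sets. That count was 0 without tethered replicate 1 and 0 without tethered replicate 3. The summed epithelial markers, of which only 2 of 5 lay above the filter, were 4799 and 4864 in the arrays numbered 1 and between 4351 and 4567 in the others. The macrophage sums (2676 and 2678 against 2581 to 2897) and endothelial sums (1788 and 1931 against 1714 to 1916) overlapped. The adipocyte sums were lower in the arrays numbered 1 (892 and 909 against 935 to 1054). The part of RNA quality and of these markers in the values of the stress genes was not tested.

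Between tethered and untethered cells the 10 genes did not separate. For none of them did the groups fail to overlap, as they did in 8.16% of all probe sets tested. Limma called 0 of 22518 probe sets (0%) in this comparison, with 536 at an unadjusted p under 0.05, and an unmoderated test per probe set also called 0 after adjustment. Chac1 had the largest log2 difference of the 10, at -0.70 (SE 0.89), with group means of 11.15 ± 1.68 in tethered and 11.86 ± 0.84 in untethered cells (log2, SD, n = 3 each). Atf3 stood at -0.55 (SE 1.12), Ddit4 at -0.51 (SE 0.38), Cebpb at -0.39 (SE 0.29) and Nupr1 at -0.37 (SE 0.66). Ddit3, Ppp1r15a and Atf5 stood at -0.14, -0.13 and -0.01, and Atf4 and Trib3 at 0.05 and 0.01. All but Ddit4 and Cebpb differed by less than the standard error.

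The median over the 10 genes was -0.26, beside -0.016 over all probe sets tested, and 8 values lay below 0 (7 after quantile normalization). This median depended on single arrays: it was 0.13 without untethered replicate 1, 0.03 without tethered replicate 2 and 0.15 without tethered replicate 3, with 4, 5 and 4 values below 0. Without tethered replicate 1 it was -0.95, without untethered replicate 3 it was -0.60, and without both arrays numbered 1 it was -0.66.

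Set side by side by replicate number, the sign of the tethered minus untethered difference varied. In the arrays numbered 1, 8 of the 10 genes were higher in the tethered sample, with a median of 0.31. Ddit3 stood at 0.91, Ppp1r15a at 0.86 and Atf4 at 0.75, and Atf3 and Ddit4 lay slightly below 0. In the arrays numbered 2 all 10 genes were lower in the tethered sample, with a median of -0.98 and values down to -1.53 for Chac1. In the arrays numbered 3, 9 were lower with a median of -0.21, and Atf5 stood at 0.43. Over all probe sets tested the medians in the same order were 0.011, -0.041 and -0.0058. Each of these differences rests on a single array per group.

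**Figure D4:**
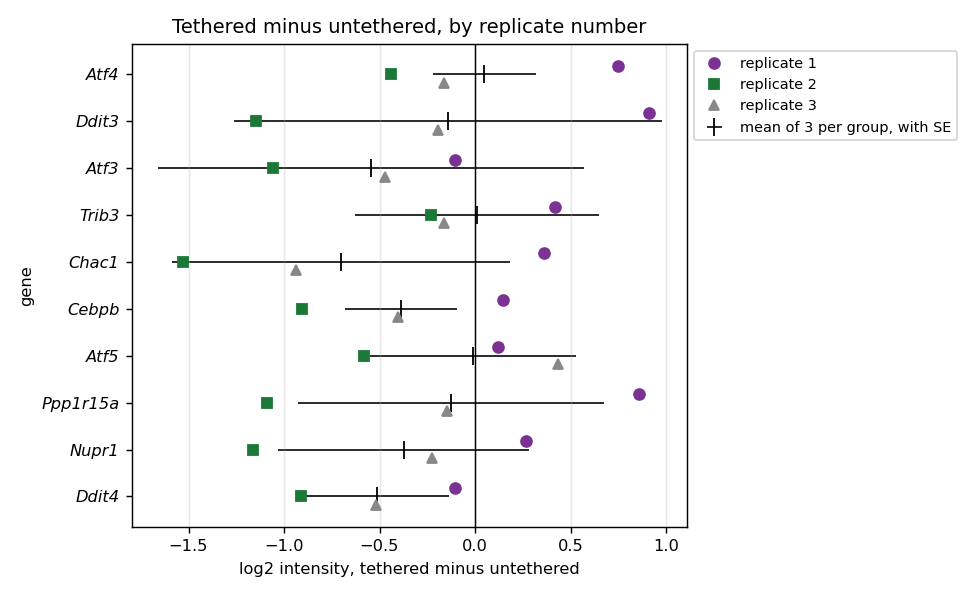
Log2 intensity, tethered minus untethered, for each gene within replicate number 1 (purple circles), 2 (green squares) and 3 (grey triangles), with the mean of 3 arrays per group and its standard error (black). The circles lie to the right of 0 for 8 genes and the squares to the left for all 10, and 8 of the black bars cross 0.

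Where a gene had several probe sets above the filter, they had the same direction by number but not always the same size. The second Ddit3 probe set had a log2 difference by number of 1.32 (SE 0.18) against 2.74, and it lay above the filter only through the arrays numbered 1. The 2 Trib3 probe sets gave 1.61 and 2.29, those of Nupr1 gave 1.52 and 1.46, and those of Cebpb 0.55 and 0.54. For Atf4 the second bright probe set gave 0.39 against 0.42, and another lay below the filter, with intensities from 67.7 to 96.6 and a difference of 0.00. In all, 15 of the 16 probe sets passed the filter. Probe sets with the suffixes _a_at and _x_at can match other transcripts of the gene or similar sequences, and Trib3, Atf5 and Nupr1 had none without such a suffix.

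Upstream of ATF4, the kinases that phosphorylate eIF2 had log2 differences by number of at most 0.315. Eif2ak3 encodes PERK, the ER stress sensor, and stood at 0.315 (SE 0.14), made up of 0.62 within the tethered and 0.013 within the untethered group. Eif2ak1 (the haem sensor HRI), Eif2ak2 (PKR, which reads double-stranded RNA) and Eif2ak4 (GCN2, which reads uncharged transfer RNA) lay between -0.09 and 0.07. None of these 4 passed the test (limma, adjusted p from 0.24 to 0.98). Ppp1r15b, unlike Ppp1r15a, stood at -0.023 (SE 0.12) and did not pass either (limma, adjusted p = 0.93). Of 15 tested genes for these kinases and for eIF2 factors, 1 rose and 2 fell in the arrays numbered 1. They were Dnajc3, an ER co-chaperone that inhibits PERK and is counted among the ER stress genes too (0.99, SE 0.21), Eif2b4, a subunit of the eIF2 exchange factor (-0.49, SE 0.11), and Ppp1ca, a phosphatase catalytic subunit (-0.66, SE 0.11). With the background of 1.59% higher and 8.27% lower, the list's median was -0.023 (0.029 after quantile normalization). No call in this list was left without tethered replicate 1 or without tethered replicate 3. Without untethered replicate 1 it was 1 up and 0 down, without untethered replicate 2 it was 1 and 1, and without untethered replicate 3 it was 0 and 1.

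Many ER stress genes are targets of ATF6 and XBP1, the other branches of the unfolded protein response. Of 25 tested members 9 rose in the arrays numbered 1, 0 fell and 16 did not pass the test (limma, adjusted p under 0.05), beside 1.59% of all probe sets called higher and 8.27% lower. The pathway lists and the split by number were chosen with earlier results of these arrays known. Their counts and adjusted p-values by number are therefore a description. The log2 difference lay above 0 for 23 of the 25, beside 44.0% of all probe sets, and the median was 0.62, beside -0.02 over all. The values below 0 were those of Atf6b (-0.13) and Bcl2l11 (-0.27), named after their values were seen. Pdia4, a disulfide isomerase, read 11303, 5141 and 3318 in untethered and 10865, 3681 and 3325 in tethered replicates 1 to 3, a log2 difference of 1.54 (SE 0.18). Ero1a, an ER oxidase, stood at 1.40 (SE 0.31), and Dnajb9, a co-chaperone, at 1.23 (SE 0.26). Sel1l, of the ER degradation complex, stood at 1.05 (SE 0.14), and Herpud1, of the same process, at 1.05 (SE 0.14). Pdia4, Ero1a and Sel1l were named after their values were seen. Sdf2l1 passed too, at 0.86 (SE 0.19), whereas the chaperone Hspa5 (BiP) at 0.62 (SE 0.21), Xbp1 at 0.70 (SE 0.16), Atf6 at 0.46 (SE 0.16) and Ern1 (the sensor IRE1) at 0.39 (SE 0.11) did not (adjusted p of 0.12, 0.053, 0.13 and 0.083). The count of 9 was 0 without tethered replicate 1, 1 without tethered replicate 3, 4 without untethered replicate 3 and 16 both without untethered replicate 2 and after quantile normalization. The median stayed between 0.38 and 0.81 with any array left out.

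The amino acid response genes, which ATF4 activates for amino acid synthesis, uptake and transfer RNA charging, held 37 tested members, of which 3 rose and 0 fell in the arrays numbered 1 (1.59% and 8.27% of all probe sets). The log2 difference lay above 0 for 34 of the 37, beside 44.0% of all probe sets, and the median was 0.34, beside -0.02 over all. Both depended on tethered replicate 1, without which 20 of 36 tested members lay above 0 and the median was 0.11. The genes that passed were Slc3a2, the heavy chain of amino acid transporters (0.87, SE 0.20), Slc1a4, a neutral amino acid transporter (0.88, SE 0.18), and Sqstm1, an autophagy receptor (0.94, SE 0.11). Larger values that did not pass were those of Slc6a9, a glycine transporter (1.60, SE 0.41), Cth, a cysteine-forming enzyme (1.55, SE 0.58), and Pck2, a mitochondrial carboxykinase (1.09, SE 0.33), with adjusted p of 0.065, 0.16 and 0.10 (limma), all 3 named after their values were seen. Cth was the 1 member of the list that lay above the filter on dim probe sets only through the arrays numbered 1. Other well-known ATF4 targets that did not pass had smaller values, among them Asns (asparagine synthetase) at 0.24 (SE 0.17), Sesn2 at 0.11, Slc7a11 at 0.046, Vldlr at 0.094, Stc2 at 0.15, Mthfd2 at -0.0054 and Psat1 at -0.31 (SE 0.098). Asns read 8542, 9253 and 6597 in untethered and 9827, 8624 and 6933 in tethered cells, so the range of the arrays numbered 1 overlapped that of the others. The count of 3 was 9 after quantile normalization, 13 without untethered replicate 2, 5 without untethered replicate 1, 0 without tethered replicate 1 and 1 without any of the other 3 arrays in turn.

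Among 17 bZIP partners 0 rose and 2 fell in the arrays numbered 1, beside 8.27% of all probe sets called lower. Those that fell were Cebpd (-1.02, SE 0.13), a C/EBP factor that is often induced along with Cebpb, and Fosl1 (-1.57, SE 0.22), an AP-1 subunit named after its values were seen. Cebpg, a preferred partner of ATF4, stood at 0.46 (SE 0.16), Jun at -0.70 (SE 0.50), Nfe2l2 (NRF2) at 0.033 and Cebpa at 0.024, and none of these passed. Without tethered replicate 1 none was called, without untethered replicate 1, 2 rose and 3 fell, and without untethered replicate 2, 1 rose and 2 fell. Of 12 relatives of Trib3 and members of the Akt and mTOR pathway, 0 rose and 1 fell, a share near the 8.27% of all probe sets called lower. It was Akt1, which fell by 0.47 on the log2 scale (SE 0.070). Trib2 stood at -1.27 (SE 0.29, adjusted p = 0.051) and Trib1 at -0.495 (SE 0.27), in contrast in sign to Trib3. The Akt1 call was lost after quantile normalization, without tethered replicate 1 and without tethered replicate 3, and 2 genes fell without untethered replicate 1. In the comparison of tethered with untethered cells 0 genes of these 5 lists passed.

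**Figure D5:**
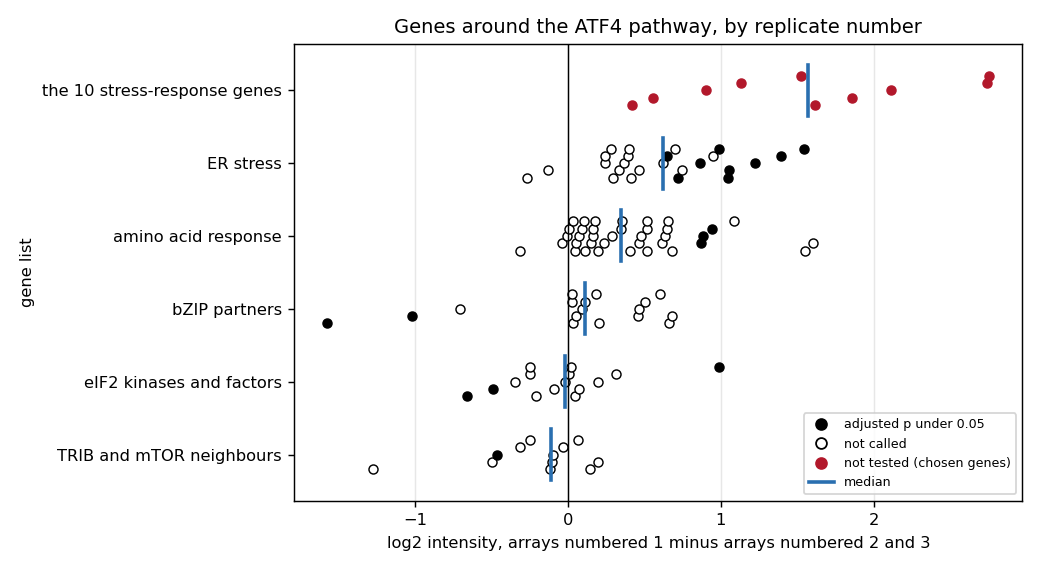
Log2 difference between arrays numbered 1 and arrays numbered 2 and 3 for each gene of 5 lists around ATF4 and for the 10 stress genes, with filled black points for an adjusted p under 0.05 and blue bars at the medians. The medians fall from 1.57 for the 10 genes to 0.62 for ER stress, 0.34 for the amino acid response and values near 0 for the other lists.

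The genes whose pattern over the 6 arrays was most like that of 4 of the regulators were taken from 1443 probe sets of other genes with at least a 2-fold range. For Ddit3 they were Tsc22d3, Kif3a, Gadd45a, BC034090 and Lgals8, with Pearson correlations from 0.994 to 0.998. Gadd45a, a growth arrest gene, read 1271, 476 and 264 in untethered and 2726, 254 and 200.5 in tethered replicates 1 to 3. Its log2 difference by number was 2.72, close in size to that of Ddit3. All its values in the arrays numbered 2 and 3 lay below the filter on dim probe sets (486.8 as an intensity). It therefore passed that filter only through the arrays numbered 1, as did Kif3a and, among the genes like Atf3, Gm11110. For Atf3 they were Cdsn, Gm11110, Pdia4, Irf2bp2 and Sqstm1 (0.989 to 0.994), and for Trib3 Acot2, Gtpbp2, Ndrg1, Bbip1 and Adamts5 (0.990 to 0.995). For Atf4, with its single high array, they were Gid4, Nfxl1, Fem1b, Slc25a33 and Esf1 (0.973 to 0.992). These correlations describe 6 points that share arrays and scaling, and they were picked as the highest of 1443 candidates. Among the 10 regulators themselves correlations ran from 0.59 (Atf4 with Atf5) to 0.99, with a median of 0.91.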

How the data were processed

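The deposited table holds 1 linear intensity for each probe set in each array, already summarised and scaled by the authors with software not named in the labels. Names come from the platform annotation (symbols updated by gene identifier to RefSeq, GRCm38.p6). Intensities under 16 were set to 16 and log2 was taken. After leaving out 64 control probe sets, the 22518 with a mean log2 above the median of all were tested with limma 3.58.1 (R 4.3.3), linear model and empirical Bayes, two-sided, Benjamini-Hochberg adjusted over all of them and called under 0.05. Tethered was compared with untethered with no covariate, and number 1 with numbers 2 and 3 with the group as covariate. The brightest probe set stood for a gene, and every probe set of the 10 genes was read. A log2 difference carries limma's standard error. The number of arrays limits the precision. The procedure was tested on simulated data with independent noise for each probe set and array, so that test does not bear on deviations that arrays share. The 10 genes, the pathway lists, the motifs and the split by number were chosen with earlier results of these data known. Named are the 10 genes, set genes of the pathway lists, and the 5 genes of most similar pattern for each of Atf4, Ddit3, Atf3 and Trib3; any other is said to be named after its values were seen, apart from genes that make up a stated count. Alternatives changed the scaling, floor, filter, probe set, moderation and arrays.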

Additional observations from a re-analysis of the deposited data

How the results depend on the processing

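With 1 array left out, the median of the 10 genes ran from 1.08 to 1.96 by number (lowest without tethered replicate 1) and from -0.95 to 0.15 between the groups, and the count of genes below 0 between the groups ran from 4 to 10. By number 9 of the 10 genes kept their sign under every alternative run, and Atf4 turned to -0.10 without tethered replicate 1. Between the groups 4 of the 10 kept theirs. The count of genes at least 2-fold higher in the arrays numbered 1 ran from 6 to 8 with 1 array left out, was 8 after quantile normalization, and was 4 of 7 genes with probe sets that carry no _s_at, _x_at or _a_at suffix, where 3 genes have no such probe set. The 2220 calls by number ran from 1 to 2847 with 1 array left out and were 0 with the unmoderated test, where the cause was not tested. Between the groups 0 calls were made under every alternative. With the replicate number as a block the group comparison also called 0 probe sets (1232 had an unadjusted p below 0.05), and the median of the 10 genes was -0.26 as without it. Deviations of same-numbered arrays correlated at 0.71, 0.075 and 0.71 for numbers 1, 2 and 3, so the numbers were not taken to pair the samples, and untethered replicate 2 correlated best with tethered replicate 3. The counts by alternative for the 10 genes and the pathway lists were added after the data were seen.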

Other observations

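Immediate early genes answer growth signals and stress within minutes and share with Atf3 a rapid induction. Egr1, Fos, Junb and Ier2 had another pattern over the same arrays, and Ier3, which was examined too, is not described here. Egr1 read 9295, 5300 and 1946 in untethered replicates 1 to 3 and 320 in tethered replicate 1, its lowest array, with 1860 and 1825 in tethered replicates 2 and 3. Fos read 2266, 1025 and 479 in untethered and 289.5, 396 and 415 in tethered replicates 1 to 3. Its values in untethered replicate 3 and in all tethered replicates lay below the filter on dim probe sets (486.8 as an intensity). Without untethered replicate 1 its mean fell below that filter, and its order among the tethered arrays is one of dim values. Atf3 was high in both arrays numbered 1, at 3443 and 3200, whereas Egr1, Fos, Junb and Ier2 were highest in untethered replicate 1 and lowest in tethered replicate 1. This difference in pattern was not tested.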
